A study of Mus musculus with 9 samples.

Results

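The genes described are the pituitary hormone genes Gh, Prl, Pomc, Cga, Tshb and Lhb, with Pou1f1, the transcription factor of the cells that make growth hormone, prolactin and thyrotropin. They are 7 of the 55450 genes counted in dissected mouse substantia nigra. The 7 were chosen on the counts of Gh and Prl found in the control tissue, so the control levels of Gh and Prl are a description and their comparisons with the control carry no test. Each of the 7 symbols matched a single GENCODE M21 identifier and each gene had a count in at least 1 library.

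RNA of nigral tissue was sequenced in 9 libraries, 3 in each of 3 groups, with the letters A, B and C naming the libraries of a group. The group CTR held CX3CR1-CreERT2 mice, whose tamoxifen-inducible Cre is made in microglia and other Cx3cr1-expressing cells, and they received a control vector that the labels describe as GFP and the study's text as a destabilized GFP. In the group CX3 the same mouse line received a vector expressing synuclein, described in the study as a mutant human form, and in the group DAT that vector was given to DAT-Cre mice, whose Cre is made in dopamine neurons. In each group the vector was a Cre-dependent lentivirus injected into the substantia nigra of both sides, and the tissue was taken 5 weeks later from mice perfused with saline, with the nigra dissected by hand. Mice of the CX3CR1-CreERT2 line, thus CTR and CX3, were given tamoxifen at 75 mg/kg on 4 days after surgery. Their age is given as 8 weeks in the study's results and as 9 weeks in its methods, where the mice are male, and the number of animals behind each library is not given in the sources used here. CX3 and CTR therefore differed by the vector, DAT and CTR by the vector, the Cre line and the tamoxifen, and CX3 and DAT by the Cre line and the tamoxifen. The files count mouse genes only, so the labels could not be checked by the level of a vector's product.

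Reads counted on genes numbered from 21592817 (DAT B) to 39475428 (DAT A) per library. Levels are given as CPM, counts per 1000000 of each library's size as normalized by the TMM method, and 3 counts, the smallest number taken as countable here, equalled 0.0779 to 0.151 CPM. Intervals of count ratios are exact at the 95% level, and they and the floor cover counting error only. The squared difference between libraries of a group was 1.45 to 1.78 times that of random sampling in CTR, 2.50 to 6.27 times in CX3 and 2.19 to 15.4 times in DAT, where the highest values were those of DAT B, the shallowest library. Nothing in the labels says that libraries of a group came from separate animals, so the p-values measure the spread between these libraries, which may be technical. The labelled tissue was checked by 10 genes of nigral dopaminergic neurons, each of which was detected in every group, and their summed level was 886 to 894 CPM in CTR, 1085 to 1102 in CX3 and 711 to 722 in DAT. In these bulk samples, fewer cells of a type and less RNA per cell cannot be told apart.

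The anterior pituitary makes its hormones in separate cell types. Somatotrophs make growth hormone (Gh) and lactotrophs prolactin (Prl), both under the factor Pou1f1, which binds AT-rich sites in hormone gene promoters. Gonadotrophs and thyrotrophs share the alpha subunit encoded by Cga and add their own beta subunit, Lhb or Tshb, and Pomc encodes the precursor of ACTH and melanocyte-stimulating hormone in corticotrophs and melanotrophs. Pomc is also made by neurons of the arcuate nucleus of the hypothalamus, and the pars tuberalis, a sheet of pituitary tissue that lies along the base of the hypothalamus, makes Tshb and Cga.

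The promoters of 4 genes are shown because these genes followed unlike patterns in the libraries. Prl was near 0 outside CTR, and Pou1f1 was low in all groups, with at most 7 counts in a library. Pomc was high in CTR and DAT, and Tshb lay at similar levels in all 3 groups. Each promoter is the 250 bases before the RefSeq start on GRCm38.p6, read 5′ to 3′ on the gene's strand, and capitals mark matches to the core ATGNATA of the Pou1f1 site on either strand (TATNCAT on the other).
Prl, chr13:27057320-27057569, plus strand: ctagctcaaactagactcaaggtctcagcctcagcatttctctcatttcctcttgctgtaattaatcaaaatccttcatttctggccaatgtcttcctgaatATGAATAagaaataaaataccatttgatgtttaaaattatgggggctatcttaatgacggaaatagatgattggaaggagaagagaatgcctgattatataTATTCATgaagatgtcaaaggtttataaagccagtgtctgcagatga
Pou1f1, chr16:65520262-65520511, plus strand: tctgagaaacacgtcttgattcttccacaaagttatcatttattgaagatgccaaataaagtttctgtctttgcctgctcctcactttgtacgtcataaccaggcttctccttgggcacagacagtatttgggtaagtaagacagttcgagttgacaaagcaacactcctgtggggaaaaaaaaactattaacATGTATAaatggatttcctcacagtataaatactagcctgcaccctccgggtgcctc
Pomc, chr12:3954695-3954944, plus strand: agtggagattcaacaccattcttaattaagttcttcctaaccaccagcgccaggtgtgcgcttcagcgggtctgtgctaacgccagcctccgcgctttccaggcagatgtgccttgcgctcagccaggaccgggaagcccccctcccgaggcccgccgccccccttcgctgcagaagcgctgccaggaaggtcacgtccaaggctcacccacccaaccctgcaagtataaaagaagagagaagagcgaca
Tshb, chr3:102782715-102782964, minus strand: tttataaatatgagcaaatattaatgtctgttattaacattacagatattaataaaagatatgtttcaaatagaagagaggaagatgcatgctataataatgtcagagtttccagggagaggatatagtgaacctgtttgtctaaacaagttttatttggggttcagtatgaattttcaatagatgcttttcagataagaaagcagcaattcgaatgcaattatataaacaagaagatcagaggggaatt
The Prl window held 2 matches, from 148 to 142 bases and from 47 to 41 bases before the start, and the Pou1f1 window held 1 match, from 57 to 51 bases before it. The windows of Pomc, Tshb, Cga and Lhb and a second window of Pou1f1 held 0. The same core was in 7.92% of the 32851 promoter windows of this length, and a match describes letters, not a bound site. Gh was not in the promoter table.

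Of the 7 genes 4, Gh, Prl, Pomc and Tshb, passed the filter on low counts, and Gh and Prl passed it through the CTR libraries alone. Levels of different genes are compared as CPM per kilobase of exon (mean ± SD, n = 3 libraries). In CTR the order of levels was Gh with 40.2 ± 1.27, Pomc with 13.5 ± 0.327, Prl with 4.15 ± 0.187, Tshb with 0.797 ± 0.0289, Lhb with 0.182 ± 0.0766, Cga with 0.140 ± 0.0338 and Pou1f1 with 0.0458 ± 0.0127 CPM per kilobase. The ranges of Lhb and Cga overlapped, and no other neighbours in this order did. Gh ranked 1138 of the 42476 genes with a count in CTR, so that 2.68% of these genes lay above it per kilobase. The order was different in CX3, where Pomc (2.08 ± 0.0822 CPM per kilobase) was followed by Tshb (0.650 ± 0.0309), Lhb (0.329 ± 0.155) and Gh (0.251 ± 0.142), the last pair with overlapping ranges. In DAT, Pomc had 13.1 ± 2.40 CPM per kilobase, Tshb 0.673 ± 0.0983, Lhb 0.289 ± 0.206 and Gh 0.119 ± 0.0700, and the ranges of Lhb and Gh again overlapped. Per kilobase, 56.0% of the genes with a count lay above Gh in CX3 and 67.8% in DAT.

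Gh (ENSMUSG00000020713.6, chr11:106300271-106301865 on GRCm38, minus strand), the growth hormone gene, has 862 exon bases and overlaps no other annotated gene. It had 1051, 1304 and 1009 counts in CTR A, B and C, or 34.7 ± 1.10 CPM. In CX3 A, B and C it had 12, 9 and 3 counts (0.217 ± 0.123 CPM), and in DAT A, B and C 6, 2 and 1 (0.103 ± 0.0604 CPM). Every CTR library thus lay far above every other library, and CX3 C, DAT B and DAT C were at or under the floor. From the summed counts, the CTR level was 161-fold that of CX3 (count interval 108 to 252) and 305-fold that of DAT (161 to 669), so that the mean was 0.625% of the CTR mean in CX3 and 0.297% in DAT. Between CX3 and DAT the libraries overlapped and the ratio of the summed counts, 24 and 9, was 1.89 with an interval of 0.849 to 4.63; no test is given, since Gh entered the fit through its CTR counts.

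Prl (ENSMUSG00000021342.14, chr13:27057570-27065205, plus strand), the prolactin gene, had 171, 211 and 184 counts in CTR A, B and C (5.85 ± 0.263 CPM). It had 3, 2 and 1 counts in CX3 A, B and C and 0 counts in each DAT library. The CX3 and DAT libraries were thus at or under the floor, with no overlap with CTR. The CTR level was 109-fold that of CX3 by summed counts (count interval 49.6 to 297), and it was at least 48.1-fold higher than in DAT when each DAT library is set to the floor of 3 counts. Neither a fold nor a test is given between CX3 and DAT, whose summed counts were 6 and 0. None of the 787 windows of 76 bases, the read length, in Gh transcripts and none of the 1405 in Prl transcripts occurred in a transcript of another gene.

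**Figure D1:**
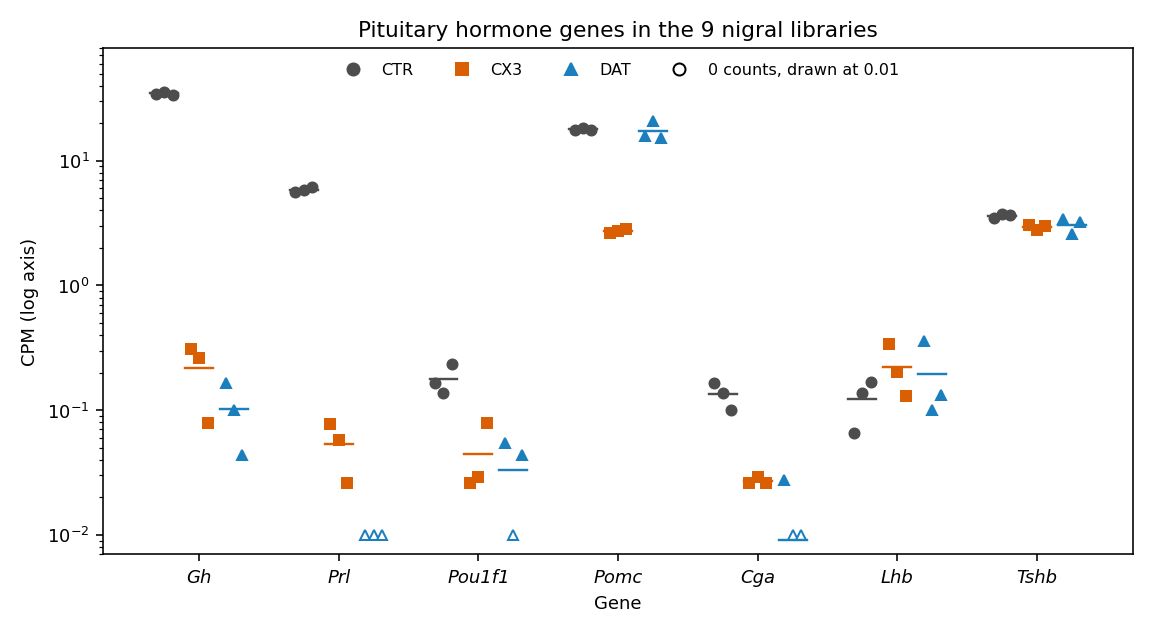
CPM (log axis) of the 7 genes in the 9 libraries, with points for libraries A, B and C of each group from left to right, lines for group means, and open symbols at 0.01 for libraries with 0 counts. Gh (33.6 to 35.8 CPM) and Prl (5.62 to 6.13 CPM) lay high in the 3 CTR libraries only, Pomc lay high in CTR and DAT, and Tshb differed little between groups.

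The ratio of Prl to Gh counts within a library does not depend on scaling. It was 0.163, 0.162 and 0.182 in CTR A, B and C, a mean of 0.169 ± 0.0116, so the 3 control libraries held the transcripts of both hormones in nearly the same proportion. In CX3 the summed counts gave 0.250, with an interval of 0.0836 to 0.628 that includes the CTR ratio. In DAT it was 0 of 9 Gh counts, which allows a ratio of up to 0.507. The ratio of Pomc to Gh was 0.510, 0.512 and 0.523 in CTR A, B and C, against 12.7 (8.38 to 20.1) over CX3 and 148 (77.8 to 325) over DAT. Each CX3 and DAT library lay above every CTR library for this ratio, which holds the control level of Gh and is therefore a description.

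**Figure D2:**
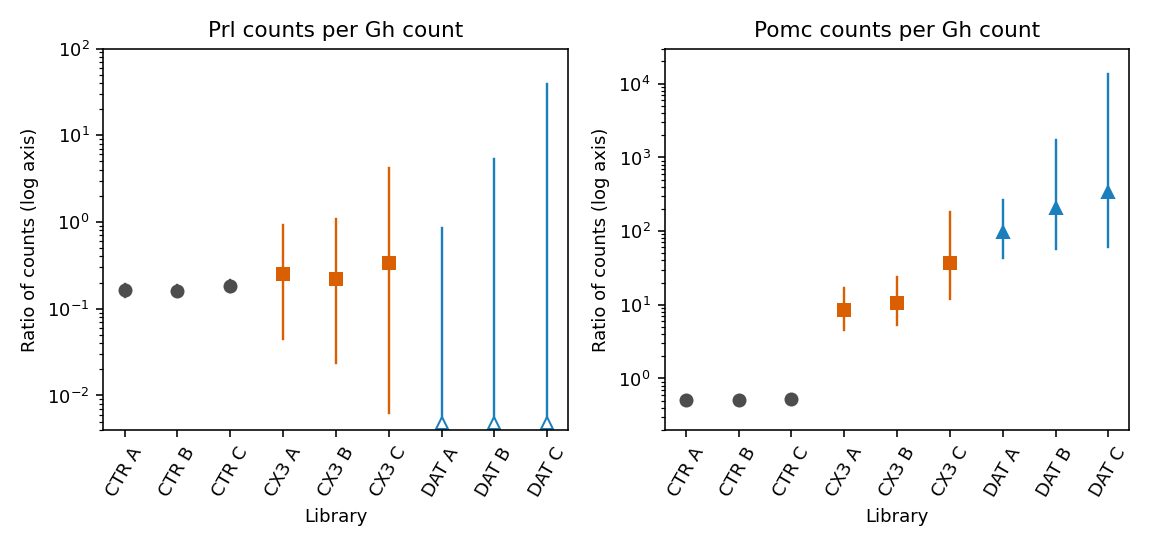
Ratios of counts within each library (log axes) with 95% exact count intervals as vertical lines, hidden behind the points in CTR, for Prl per Gh count on the left and Pomc per Gh count on the right; open symbols at the lower edge are ratios of 0. The Prl ratio was 0.162 to 0.182 in CTR with overlapping intervals in the other groups, and the Pomc ratio was 0.510 to 0.523 in CTR, 8.42 to 36.3 in CX3 and 95.7 to 344 in DAT.

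Pou1f1 (ENSMUSG00000004842.18, chr16:65520511-65535005, plus strand) had 5, 5 and 7 counts in CTR A, B and C, 1, 1 and 3 in CX3 and 2, 0 and 1 in DAT. The CTR libraries lay above all others, which were at or under the floor. The gene failed the filter, and in a fit of all genes with at least 1 count its adjusted p by edgeR was 0.124 for CX3 and 0.0737 for DAT against CTR. That fit gave far smaller p-values than the fit of filtered genes. For Pomc in CX3 against CTR, its edgeR adjusted p was 6.50e-137, against 8.67e-10 with the filter, at a like difference. Its p-values may therefore be too small. In CTR there were 0.00505 Pou1f1 counts per Gh count (0.00294 to 0.00810). Over CX3 the ratio was 0.208 (0.0621 to 0.557) and over DAT 0.333 (0.0580 to 1.34), on summed Pou1f1 counts of 5 and 3 from libraries at or under the floor. These ratios hold the control level of Gh and are a description only.

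The glycoprotein hormone subunits Cga and Lhb were near the floor in all groups. Cga (ENSMUSG00000028298.10, chr4:34893779-34907370, plus strand), the common alpha subunit, had 5, 5 and 3 counts in CTR A, B and C, 1 in each CX3 library and 1, 0 and 0 in DAT. Of its exon bases, 32.0% are shared with Platr9 on the opposite strand, and reads there were not assigned in the count of both strands. Counted on 1 strand at a time, Cga had 7 and 13, 14 and 13, and 4 and 3 counts (forward and reverse) in CTR A, B and C, and at most 3 on either strand in any other library. In the fit of all genes with at least 1 count, whose p-values may be too small, edgeR gave an adjusted p of 0.0490 for DAT and 0.159 for CX3 against CTR. These rest on summed counts of 13 in CTR, 3 in CX3 and 1 in DAT. Lhb (ENSMUSG00000100916.3, chr7:45420820-45421897, plus strand), the beta subunit of luteinizing hormone, went the other way in level, with 2, 5 and 5 counts in CTR, 13, 7 and 5 in CX3 and 13, 2 and 3 in DAT. The groups overlapped, the adjusted p by edgeR was 0.363 for CX3 and 0.339 for DAT against CTR, and 20.4% of its exon bases are shared with Ruvbl2, so its counts are uncertain. Cga and Lhb thus gave no level from which a fold could be read with any precision.

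Pomc (ENSMUSG00000020660.6, chr12:3954951-3960642, plus strand) did not follow Gh. It had 536, 668 and 528 counts in CTR A, B and C (17.9 ± 0.431 CPM), 101, 95 and 109 in CX3 (2.73 ± 0.108 CPM) and 574, 415 and 344 in DAT (17.2 ± 3.17 CPM). The CX3 libraries lay below all others, while CTR and DAT overlapped. Groups without overlap were common in these data, at 49.3% of the 20892 genes tested for CX3 against CTR, 64.1% for DAT against CTR and 61% for CX3 against DAT. Pomc was lower in CX3 than in CTR by a log2 difference of -2.71 ± 0.12 (edgeR adjusted p = 8.67e-10), in a comparison in which 30.5% of genes were called, 14% as higher and 16.5% as lower in CX3. It was also lower in CX3 than in DAT, by -2.64 ± 0.12 (edgeR adjusted p = 3.81e-10), where 58.9% of genes were called, 27.6% as higher and 31.3% as lower in CX3. Between DAT and CTR the difference was -0.06 ± 0.10 (edgeR adjusted p = 0.588), with a count ratio of 0.942 and an interval of 0.876 to 1.01, while 59.9% of genes were called in that comparison, 32% as higher and 27.9% as lower in DAT. DAT B had the highest Pomc level, 20.9 CPM against 15.7 and 15.1 in DAT A and C, and without it DAT was lower than CTR by -0.21 (edgeR adjusted p = 0.0141). With the counts of the reverse strand alone it was lower by -0.25 (edgeR adjusted p = 0.0455).

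Tshb (ENSMUSG00000027857.10, chr3:102775465-102782718, minus strand), the beta subunit of thyrotropin, was the member with the most even level. It had 106, 136 and 110 counts in CTR A, B and C (3.63 ± 0.132 CPM), 118, 97 and 116 in CX3 (2.96 ± 0.141 CPM) and 125, 51 and 73 in DAT (3.07 ± 0.448 CPM). All CTR libraries lay above all CX3 and DAT libraries, by margins that the edgeR test did not call: the log2 difference was -0.29 ± 0.13 for CX3 (adjusted p = 0.0957) and -0.22 ± 0.13 for DAT (adjusted p = 0.160) against CTR. Scaled by library size alone, DAT was lower than CTR by -0.37 (edgeR adjusted p = 0.0258). Between CX3 and DAT it differed by -0.07 ± 0.13 (edgeR adjusted p = 0.675), with an interval of the count ratio from 0.798 to 1.12. Tshb lies within the span of Tspan2, a tetraspanin gene of the opposite strand with no exon base in common, and Tspan2 had 434 ± 9.58 CPM in CTR, 417 ± 8.85 in CX3 and 371 ± 0.662 in DAT. There were 6.74 to 9.24 Tshb counts per 1000 Tspan2 counts in the 9 libraries. The strand of a read could not be used to part the genes, since each strand held close to equal shares of the counts, and the part of Tspan2 transcripts in the Tshb counts was not tested.

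Other genes of the pituitary were listed to ask which pituitary tissue, if any, the libraries held. Of 20 such genes, 11 passed the filter, and of the 9 that failed 7 had their highest mean level in CTR, 1 in CX3 and 1 in DAT. Genes of any kind were detected more often in CTR: 42476 had a count there, 36202 in CX3 and 31764 in DAT. The share of all failed genes that were highest in CTR was not taken, so the 7 of 9 cannot be read as particular to pituitary genes. The 9 include Fshb, the beta subunit of follicle-stimulating hormone, and Ghrhr, the receptor for growth hormone-releasing hormone in somatotrophs. The genes of this paragraph were named after their values were seen. Fshb had 4, 4 and 3 counts in CTR A, B and C and 0 in the other 6 libraries. Ghrhr had 10, 8 and 1 counts in CTR, 0 in each CX3 library and 3, 0 and 0 in DAT. Tbx19, a factor of corticotrophs, was instead highest in DAT, with 12, 5 and 16 counts against 6, 9 and 4 in CTR and 0, 0 and 1 in CX3. Lhx4, a LIM homeodomain gene, was highest in CX3, with 8, 12 and 8 counts against 6, 6 and 5 in CTR and 5, 1 and 3 in DAT. Mtnr1a, a melatonin receptor gene of the pars tuberalis, had 10, 8 and 8 counts in CTR, 10, 6 and 8 in CX3 and 6, 3 and 1 in DAT. The other failed genes had 5 or fewer counts in each library, and none of these low counts was tested.

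The 11 genes of this list that passed the filter were distributed otherwise. Against CTR, 8 were higher and 1 lower in DAT (median log2 difference 0.85), and 1 was higher and 4 were lower in CX3 (median -0.32), whereas the median of all genes tested was -0.00 in both. Of all genes tested, 32% were called higher and 27.9% lower in DAT, and 14% higher and 16.5% lower in CX3. Without CTR B 3 genes in place of 5 were called in CX3 against CTR. In CX3 against DAT, 8 were lower and 0 higher in CX3 (median -0.78, all genes tested 0.01), beside 31.3% and 27.6% of all genes. Nr5a1, steroidogenic factor, which marks gonadotrophs and also the ventromedial hypothalamus, had 7, 5 and 5 counts in CTR, 1, 1 and 0 in CX3 and 35, 22 and 25 in DAT. Its log2 difference between CX3 and DAT was -5.58 ± 0.48 (edgeR adjusted p = 2.24e-07). Six6, a homeodomain factor of the pituitary and hypothalamus, was also lower in CX3 than in DAT (-4.33 ± 0.47), as were the somatostatin receptor gene Sstr5 (-1.84 ± 0.25) and the forkhead gene Foxl2 (-0.93 ± 0.21). Nr5a1, Six6, Sstr5 and Foxl2 were each higher in DAT than in CTR as well, by log2 differences of 0.85 to 2.54.

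Hypothalamic genes bear on Pomc, which hypothalamic neurons also make. Their summed level over 15 genes was 21.4 to 23.5 CPM in CTR, 37.8 to 38.0 in CX3 and 59.4 to 65.0 in DAT, and DAT lay above the other groups. The order of CTR and CX3 rested on Hcrt, the hypocretin gene, at 0.290 ± 0.0653 CPM in CTR and 9.29 ± 0.654 in CX3, and on Pmch, and the other 13 genes summed to 20.5 to 22.9 CPM in CTR, 18.3 to 19.1 in CX3 and 52.3 to 56.7 in DAT (a sum chosen after seeing the data). Kiss1 was at 0 counts in all libraries, and the other 14 passed the filter. Against CTR, 12 were higher and 1 lower in DAT (median log2 difference 1.75), and 3 were higher and 3 lower in CX3 (median -0.14). Among all genes tested, 32% were called higher and 27.9% lower in DAT, and 14% higher and 16.5% lower in CX3. In CX3 against DAT, 3 were higher and 9 lower in CX3 (median -1.35), beside 27.6% and 31.3% of all genes. Oxt, the oxytocin gene, had 6, 7 and 8 counts in CTR, 4, 7 and 5 in CX3 and 134, 83 and 86 in DAT, a log2 difference of 4.13 ± 0.23 between DAT and CTR (edgeR adjusted p = 2.14e-09). Avp, the vasopressin gene, had 12, 16 and 12 counts in CTR, 27, 16 and 19 in CX3 and 217, 160 and 129 in DAT (DAT against CTR 3.96 ± 0.21, edgeR adjusted p = 1.74e-09). Npvf, a neuropeptide gene of the dorsomedial hypothalamus, and Rax, a homeodomain gene of the ventral hypothalamus and its tanycytes, were higher in DAT than in CTR by 3.16 ± 0.38 and 1.86 ± 0.39. Pmch, the melanin-concentrating hormone gene of the lateral hypothalamus, had instead its highest level in CX3, with 362, 346 and 398 counts against 19, 22 and 13 in CTR and 216, 139 and 129 in DAT. It was higher in CX3 than in CTR by 4.14 ± 0.15 (edgeR adjusted p = 7.78e-11) and higher in CX3 than in DAT by 0.69 ± 0.10 (edgeR adjusted p = 4.81e-05). Counted on 1 strand at a time, Pmch had far more counts. In forward and reverse order they were 53 and 66 in CTR A, 1340 and 1366 in CX3 A and 852 and 939 in DAT A. The count of both strands, and with it the summed level of the 15 genes, thus understates Pmch. Pomc was at a like level in DAT, with near 0 Gh and high Oxt and Avp, and in CTR, with high Gh and low Oxt and Avp. Pomc was lowest in CX3, where Gh, Oxt and Avp were low but Hcrt and Pmch were at their highest. Agrp, of the same list, had 1.32 ± 0.164 CPM in CTR, 1.31 ± 0.194 in CX3 and 2.10 ± 0.378 in DAT. The 3 genes lower in CX3 than in CTR were Nkx2-1, Rax and Sim1, by log2 differences of -0.999, -3.40 and -0.596. They were also lower in CX3 than in DAT, as Pomc was, by -2.64, -5.27 and -1.32. Unlike Pomc, they were higher in DAT than in CTR, by 1.64, 1.86 and 0.729. Rax had at most 1 count in each CX3 library. The 3 genes higher in CX3 than in CTR were Hcrt, Pmch and Trh, and 8 were not called. The genes of the list thus shared no single pattern with Pomc over the 3 groups. The part of pituitary or hypothalamic tissue in the Pomc counts was not tested.

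**Figure D3:**
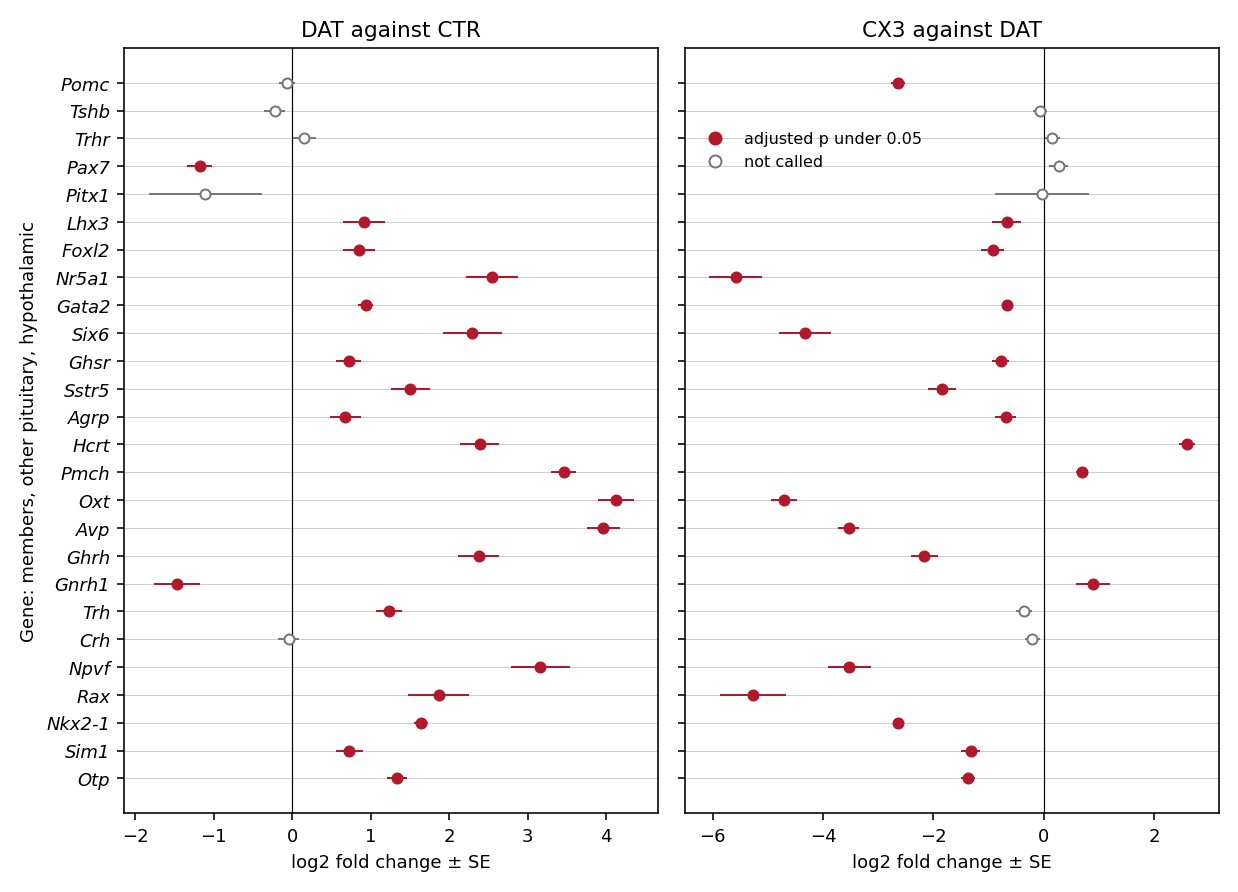
Log2 fold changes ± SE of Pomc, Tshb and of tested genes of the other pituitary and hypothalamic lists, for DAT against CTR (left) and CX3 against DAT (right), with filled red points for an adjusted p under 0.05 and open grey points otherwise. In DAT against CTR, Pomc (-0.06) and Tshb (-0.22) were not called. In that comparison 8 of 11 other pituitary and 12 of 14 hypothalamic genes were higher in DAT. In CX3 against DAT, Pomc (-2.64) was lower in CX3. So were 9 of the 14 hypothalamic genes, among them Oxt (-4.71) and Avp (-3.54), while 3, Hcrt, Pmch and Gnrh1, were higher. Of all genes tested, 31.3% were called lower and 27.6% higher in CX3 than in DAT.

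Genes of peptide hormone processing, which cut and amidate hormone precursors such as that of Pomc or fill secretory granules, are made by many neurons. All 9 listed genes passed the filter. Their summed level was 5267 to 5327 CPM in CTR, 4247 to 4385 in CX3 and 6200 to 7079 in DAT, the highest in DAT B. Against CTR, 7 were higher and 0 lower in DAT, and 2 were higher and 5 lower in CX3, and in CX3 against DAT 8 were lower and 0 higher in CX3. Among all genes tested, 32% were called higher and 27.9% lower in DAT than in CTR, and 14% higher and 16.5% lower in CX3 than in CTR. The shares in CX3 against DAT were 31.3% lower and 27.6% higher in CX3. The granins Chga and Chgb were lower in CX3 than in DAT by -1.15 ± 0.05 and -1.09 ± 0.04 on the log2 scale, Pam, the amidating enzyme, by -1.06 ± 0.04, and Pcsk1n, an inhibitor of prohormone convertase, by -0.69 ± 0.08. Cpe, carboxypeptidase E, had the highest level of the list and differed between DAT and CTR by 0.04 ± 0.04 (edgeR adjusted p = 0.507).

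Receptors and signal carriers of the hormones were called in both directions in each comparison, as were genes at large. Of 17 such genes, 13 passed the filter. In CX3 against CTR 3 were higher and 2 lower (3 called in all without CTR C), in DAT against CTR 3 were higher and 3 lower, and in CX3 against DAT 4 were higher and 5 lower, with medians of -0.06, -0.02 and -0.13. The shares of all genes called in these comparisons were 30.5%, 59.9% and 58.9%. Tshr, the thyrotropin receptor gene, was lower in CX3 than in DAT (-1.88 ± 0.34), as were the melanocortin receptor genes Mc3r (-1.30 ± 0.23) and Mc4r (-0.56 ± 0.17). Igf1, a target of growth hormone signalling in liver that glia also make, was at 26.8 ± 0.718 CPM in CTR, 34.0 ± 2.90 in CX3 and 20.0 ± 2.29 in DAT, and it was higher in CX3 than in CTR by 0.34 ± 0.08 (edgeR adjusted p = 0.00382) and lower in DAT than in CTR by -0.42 ± 0.08 (edgeR adjusted p = 0.000483). Jak2, the kinase bound by the growth hormone and prolactin receptors, had the highest level per kilobase of the list and was higher in CX3 than in DAT by 0.42 ± 0.05.

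Choroid plexus genes, which mark the epithelium that makes cerebrospinal fluid, were lowest where Gh and Prl were highest. Their summed level over 10 genes was 50.5 to 50.6 CPM in CTR, 1503 to 1612 in CX3 and 898 to 1067 in DAT. Of the 10 genes 9 were higher and 0 lower than CTR in CX3 and likewise in DAT (medians 2.35 and 2.26), and between CX3 and DAT 4 were higher and 2 lower in CX3. Among all genes tested, 14% were called higher than CTR in CX3 and 32% in DAT, and 58.9% were called between CX3 and DAT. Ttr, the transthyretin gene, had 591, 758 and 596 counts in CTR, 58529, 49884 and 54181 in CX3 and 28958, 19200 and 18202 in DAT. Folr1, a folate receptor gene, had 43, 55 and 42 counts in CTR, 390, 347 and 361 in CX3 and 179, 115 and 101 in DAT. Kl, the klotho gene, was instead highest in DAT with 38.0 ± 1.70 CPM, and Kcnj13, a potassium channel gene, had 0.868 ± 0.110 CPM in CTR, 2.84 ± 0.0753 in CX3 and 1.82 ± 0.0663 in DAT. The level of Kcnj13 is understated, since CX3 A held 112 counts of both strands but 268 forward and 279 reverse counts.

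Of the 10 nigral dopaminergic genes, 7 were higher and 0 lower in CX3 than in CTR, 3 were higher and 4 lower in DAT than in CTR, and 7 were higher and 0 lower in CX3 than in DAT. Beside these stand 14% of all genes tested called higher and 16.5% lower in CX3 than in CTR. In CX3 against DAT the shares of all genes were 27.6% higher and 31.3% lower in CX3. For DAT against CTR they were 32% higher and 27.9% lower in DAT, and the 7 of 10 called there are near the 59.9% in either direction. Slc6a3, the dopamine transporter gene, had 130.0 ± 2.58 CPM in CTR, 195 ± 2.74 in CX3 and 91.1 ± 2.52 in DAT. Th, tyrosine hydroxylase, had 81.6 ± 2.16, 101 ± 2.50 and 68.4 ± 0.501 CPM in the same order, and Ddc, the dopa decarboxylase gene, 110 ± 2.55, 165 ± 2.75 and 92.3 ± 4.09 CPM. Pitx3, a factor of dopamine neurons, was higher in CX3 than in DAT by 0.67 ± 0.18 (edgeR adjusted p = 0.00593), and Aldh1a1, the aldehyde dehydrogenase of ventral tier neurons, by 0.50 ± 0.04 (edgeR adjusted p = 3.40e-08). The summed levels of the hypothalamic, choroid plexus and dopaminergic lists did not overlap between any of the 3 groups. Such non-overlap was common among single genes, at 49.3% for CX3 against CTR, 64.1% for DAT against CTR and 61% for CX3 against DAT. The part of tissue outside the nigra in the levels of the hormone genes was not tested. The labels give no day or other record of the dissections, so the group and the extent of dissected tissue cannot be told apart.

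**Figure D4:**
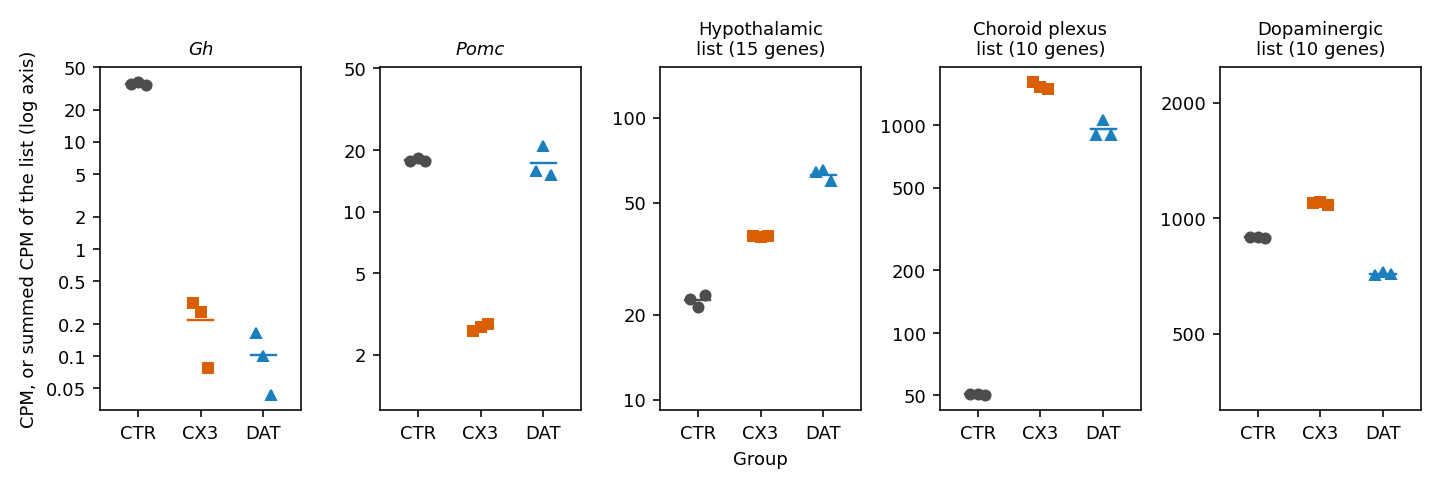
CPM of Gh and Pomc and summed CPM of the hypothalamic, choroid plexus and dopaminergic gene lists in the 3 libraries of each group (log axes, differing between panels), with lines for group means. CTR was highest for Gh and lowest for the choroid plexus list (50.5 to 50.6 CPM), its hypothalamic sum (21.4 to 23.5 CPM) lay below that of CX3 through Hcrt and Pmch alone, and DAT joined high Pomc with the highest hypothalamic level.

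The genes whose patterns over the 9 libraries were most like those of Gh and Prl were taken as the 5 with the smallest distance between log2 CPM profiles, each centred on its mean. All 10 were variable-region genes of immunoglobulins, which antibody-forming B cells and plasma cells express. For Gh they were Ighv2-6, Ighv5-4, Igkv4-53, Ighv9-1 and Ighv1-11, at distances of 1.13 to 1.67 and Pearson correlations of 0.989 to 0.996. For Prl they were Ighv1-39, Ighv2-9, Ighv1-72, Ighv5-9 and Ighv8-4, at distances of 0.75 to 1.15 and correlations of 0.993 to 0.997. The 9 points of each correlation share their libraries and fall into high CTR and low other libraries, so these values describe that step alone. Ighv5-4 had 1112, 1263 and 1018 counts in CTR A, B and C, close to those of Gh, 4, 5 and 2 in CX3 and 3, 1 and 1 in DAT. Ighv1-39 had 244, 248 and 228 counts in CTR, 5, 2 and 2 in CX3 and 0, 0 and 1 in DAT. Relative to their CTR means, the 5 genes most like Gh were at 0.129% to 0.914% in CX3 and 0% to 0.203% in DAT, and Gh itself at 0.625% and 0.297%. The 5 genes most like Prl were at 0.136% to 2.26% in CX3 and 0% to 0.241% in DAT. These genes were picked for likeness over the same libraries, so their low shares outside CTR follow from that choice. Reads of variable-region genes can be shared among near-identical family members, so the count of any single such gene is uncertain.

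**Figure D5:**
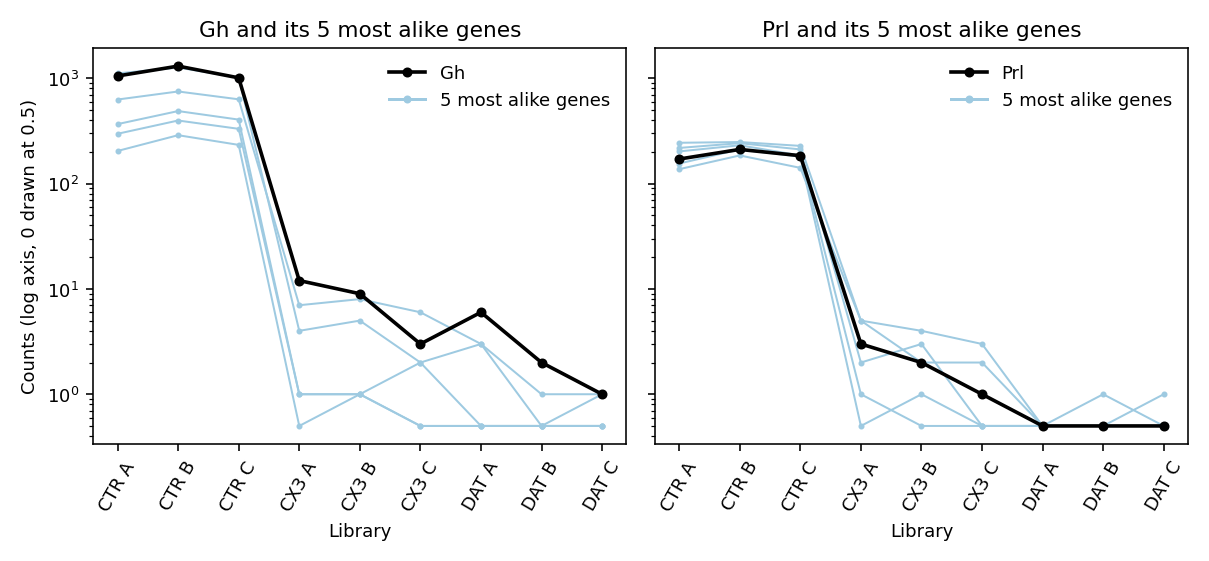
Counts per library (log axis, 0 drawn at 0.5) of Gh (left) and Prl (right) in black and of the 5 genes most like each in blue, with lines joining libraries as a guide. All 12 genes had 137 or more counts in each CTR library and 12 or fewer in every CX3 and DAT library.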

How the data were processed

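RNA libraries were prepared with a stranded mRNA kit and sequenced with 76-base reads; per the study's methods and the submitters' processing notes, reads were trimmed with Trimmomatic and aligned to mm10 with STAR. Versions are not given in the sources used here. The authors deposited raw read counts per gene, without normalization, in the layout of STAR's gene counts (both strands together and each strand), while the methods name featureCounts for counting and DESeq2 for testing. Rows naming no gene held 30.5% to 35.9% of the reads and were left out. All 55450 identifiers matched GENCODE M21. The reverse strand held 49.8% to 49.9% of strand-specific counts, so the counts of both strands were used. Depth was 21592817 to 39475428 counts on genes.

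Genes kept by filterByExpr (20892) were fitted over all 9 libraries by edgeR 4.0.16 (TMM, quasi-likelihood test) in R 4.3.3 and adjusted by Benjamini-Hochberg over all genes tested, with calls at 0.05. The SE of a log2 difference was taken as its size divided by the square root of the F statistic. DESeq2 1.42.0 served as an alternative, with other scalings, filters, strands, groups and left-out libraries. The fit was tested on simulated counts. Count ratios have exact binomial intervals (scipy 1.17.1 in Python 3.11.15). Promoters were read from RefSeq (6 of 7 genes matched).

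The genes and lists were chosen with earlier results of these data known. All 7 genes are given in every library; of each list, up to 4 genes called in CX3 against DAT with the largest difference and the gene with the highest level per kilobase; and the 5 genes nearest in profile to Gh and to Prl. Not every gene these rules name is reported here by name or plotted, and the counts over lists include all their genes.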

Additional observations from a re-analysis of the deposited data

How the results depend on the processing

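The log2 difference of Tshb between CX3 and DAT, which was not called (-0.07), changed sign to 0.12 by library size alone, 0.072 on the reverse strand and 0.051 without DAT A (from -0.16 to 0.051 over left-out libraries); Pomc kept its sign in each comparison. The number of other pituitary genes called in CX3 against CTR (5) was 9 with genes of at least 1 count, 2 on the reverse strand, 3 on the forward strand and 3 with only these groups fitted, and ranged from 3 to 6 on leaving out each library; that of receptor and signalling genes (5) was 3 on the reverse strand and ranged from 3 to 6. The summed level of the 7 genes (62.4 CPM in CTR, 6.26 in CX3 and 20.6 in DAT) was 58.5 on the reverse and 59.0 on the forward strand in CTR, 6.62 by library size alone and 5.85 on the reverse strand in CX3, and 17.6 on the reverse strand in DAT. The cause was not tested. By library size alone the median of all genes moved to -0.15 in DAT against CTR and 0.20 in CX3 against DAT, and the share of called genes that were higher was 58.9%, 37.8% and 66.7% in CX3 against CTR, DAT against CTR and CX3 against DAT, against 45.9%, 53.4% and 46.8% with TMM. Same-lettered libraries of different groups did not deviate together over all genes (correlations from -0.16 to 0.04), so no pairing by letter was seen. A shared effect on few genes could be missed in this way. With a replicate block 5805, 12144 and 11955 genes were called, against 6367, 12520 and 12311. The counts of Cga, Lhb and Pou1f1, and of Gh and Prl outside CTR, are limited by depth: 3 counts equal 0.0779 to 0.151 CPM.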
